A study of Mus musculus with 2 samples.

Results

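Claudins and the other genes of epithelial cell junctions were measured by RNA sequencing in mouse intestinal cells sorted for Lgr5 expression, with 1 wild-type and 1 Srcap-knockout library. The group holds every gene named Cldn followed by digits alone, of which there were 18, and 20 named genes of tight junctions, adherens junctions, desmosomes and gap junctions. These 38 genes were found among the 17840 genes measured. Claudin family members without a row were not analysed here.

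Epithelial cells are held together by several kinds of junction. Tight junctions seal the space between neighbours near the gut lumen, and claudins form their strands. Some claudins tighten the seal, while others form channels for ions and water, so the mixture of paralogs sets how leaky an epithelium is. Adherens junctions and desmosomes carry mechanical load and connect to actin and to keratin filaments, and gap junctions let small molecules pass between cells. In the intestine, claudin expression differs along the axis from crypt to villus.

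The cells came from crypts of Lgr5GFP mice and were sorted on GFP fluorescence, with no culture step, per the labels' protocols. The knockout library was made from Srcapflox/flox; Lgr5-Cre+ mice given tamoxifen, and the wild-type library from Srcap+/+; Lgr5-Cre+ mice. Lgr5-Cre was therefore carried by both groups, and it acts in Lgr5-expressing crypt base cells and their descendants. It is not stated whether the wild-type mice were given tamoxifen as well, nor are the age, sex or number of mice. SRCAP is the ATPase of a complex that places the histone variant H2A.Z in nucleosomes.

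Levels are FPKM (fragments counted per kilobase and per 1000000 mapped), which are scaled for length and so can be set against each other between genes. Low values imply that about 17100000 reads were assigned to genes for wild-type and 17000000 for knockout cells. Srcap itself was at 20.4 FPKM in wild-type and 11.3 FPKM in knockout cells, or 55.7% of the wild-type level. The libraries held more than stem cells. All 8 stem cell markers and all 5 Paneth cell markers examined had lower values in the knockout library, with median log2 ratios of -0.73 and -0.85. Of 8 enterocyte markers 7 had higher values (median 0.96), and all 6 goblet cell markers did (median 0.66). With 1 library per genotype there is no replicate check and no p-value, so each difference is one between these libraries. Fewer cells of a type and less RNA per cell cannot be told apart in such bulk samples.

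Most junction genes lay close to equality. Differences are given as log2 ratios of knockout over wild type on FPKM + 1, which understates differences of low genes. A gene was called when this ratio reached 2-fold in either direction, provided that one of its values was 1 FPKM or more. Of the 38 genes, 29 reached 1 FPKM in either library, and the other 9, all claudins, stayed below it in both. Of the 29, 2 were called higher, Cldn5 and Cldn10, and 0 were called lower. Over all 11784 genes at this level, 2.61% were called higher and 0.416% lower. The 2 called members were among the least abundant, and 27 lay within 2-fold. The median log2 ratio of the 28 members averaging 1 FPKM or more was 0.13, against 0.02 over 11443 genes.

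**Figure D1:**
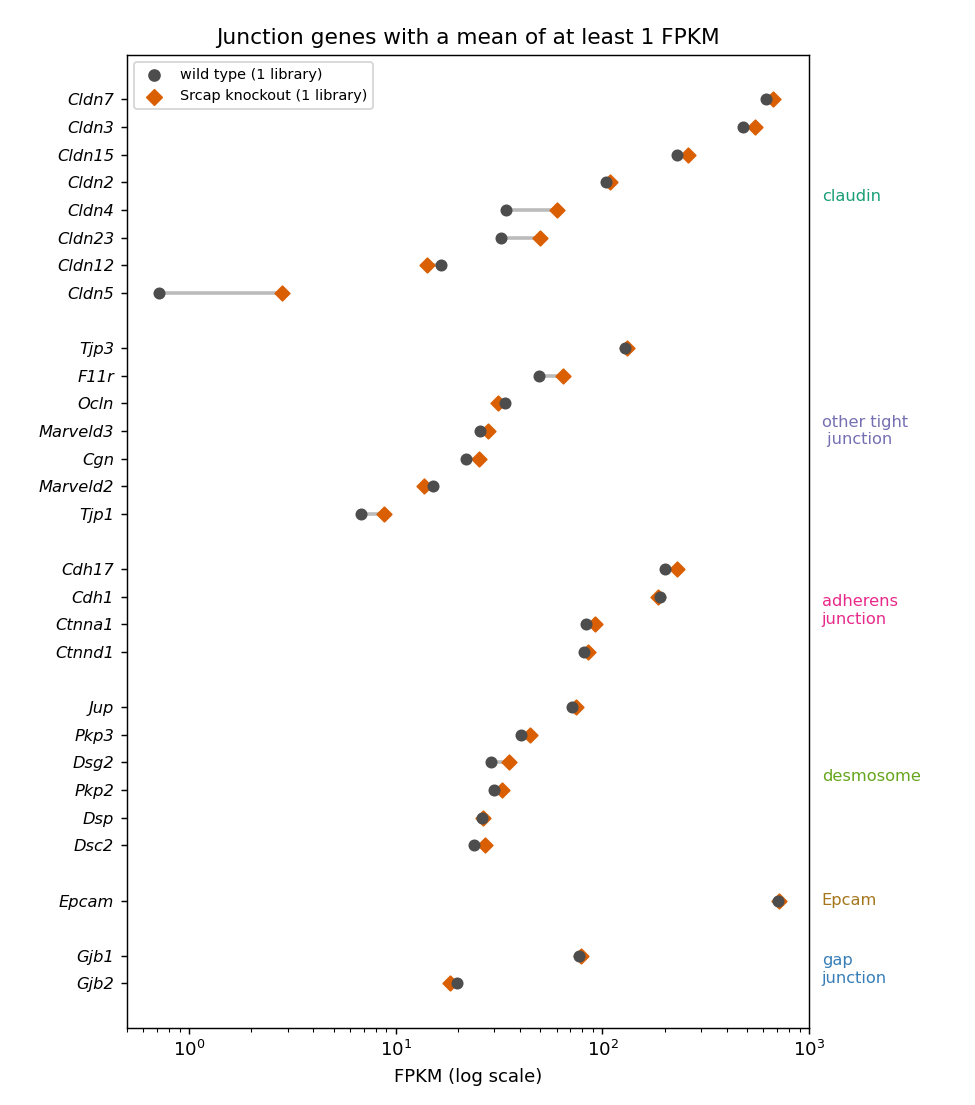
FPKM on a log axis for the 28 junction genes averaging 1 FPKM or more, by junction type, in the wild-type (circles) and Srcap-knockout (diamonds) library, with a line joining both values of a gene. The symbols nearly coincide for most genes and are far apart for Cldn5, Cldn4 and Cldn23.

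Just 4 claudins made up nearly all claudin transcripts in both libraries. Cldn7, Cldn3, Cldn15 and Cldn2 together held 94.4% of summed claudin FPKM in wild-type and 92.4% in the knockout library. Cldn7 (chromosome 11, 69964779 to 69967886, mm10), whose protein binds EPCAM at the lateral membrane, was the most abundant, at 620 FPKM in wild-type and 670 FPKM in knockout cells. Cldn3, a sealing claudin, was at 480 FPKM in wild-type and 545 FPKM in knockout cells. Both were slightly higher in the knockout library, with log2 ratios of 0.11 and 0.18. The summed claudin level was 1519 FPKM in wild-type and 1713 FPKM in knockout cells, a ratio of 1.13.

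The channel-forming claudins of the gut epithelium were near equality. Cldn15 (chromosome 5, 136967869 to 136975845) forms cation channels and is needed for sodium to return to the gut lumen. It was at 230 FPKM in wild-type and 259 FPKM in knockout cells, with a log2 ratio of 0.17. Cldn2 (chromosome X, 139800808 to 139811386), a cation and water channel typical of crypts, was at 104 FPKM in wild-type and 108 FPKM in knockout cells, with a log2 ratio of 0.06. Its level was 0.454 times that of Cldn15 in wild-type and 0.418 times in knockout cells.

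Among the abundant members, Cldn4 and Cldn23 differed most. Cldn4 (chromosome 5, 134945123 to 134946934) encodes a sealing claudin. It was at 34.3 FPKM in wild-type and 60.3 FPKM in knockout cells, a 1.76-fold difference with a 95% counting interval of 1.63 to 1.90, which covers counting error only. Cldn23 (chromosome 8, 35824709 to 35826559), a less studied claudin of the intestinal surface epithelium, was at 32.4 FPKM in wild-type and 49.8 FPKM in knockout cells, a 1.54-fold difference. Their log2 ratios were 0.80 and 0.60, short of the 2-fold rule. Of 5766 genes that reached 10 FPKM in both libraries, 1.39% had a higher ratio than Cldn4 and 2.74% a higher one than Cldn23.

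The share of Cldn4 among all claudin FPKM was 2.26% in wild-type and 3.52% in knockout cells, and that of Cldn23 was 2.13% and 2.91%. Both were higher in the library whose enterocyte and goblet cell markers were higher. In that library 4 of 8 enterocyte markers and 1 of 6 goblet cell markers were called higher, and the summed enterocyte level was 727 FPKM in wild-type and 1065 FPKM in knockout cells, with 0 of the 8 markers listed at 0. The summed goblet cell level was 3681 FPKM in wild-type and 6179 FPKM in knockout cells. Their part in the Cldn4 and Cldn23 values was not tested.

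**Figure D2:**
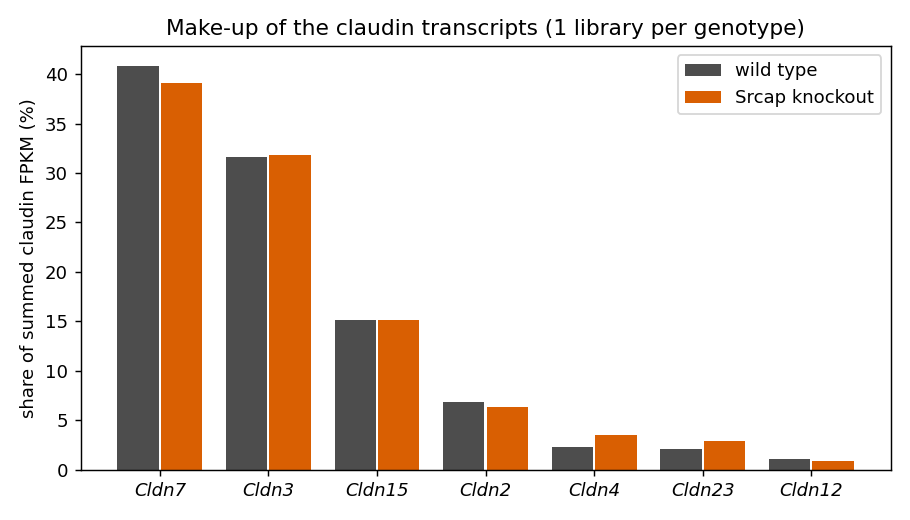
Share of the summed FPKM of 18 claudins held by each of the 7 most abundant, in percent, with 1 bar per library. Cldn7 and Cldn3 lead in both libraries, and the shares of Cldn4 and Cldn23 are larger in the knockout library.

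Cldn12 was the abundant claudin that was lower in the knockout library. It has been linked to calcium uptake in the intestine, and was at 16.6 FPKM in wild-type and 14.2 FPKM in knockout cells, with a log2 ratio of -0.21. This ratio lay inside the range from the 5th to the 95th percentile of the 5766 genes, which ran from -0.30 to 0.43. Of the 7 claudins at 10 FPKM or more in both libraries, 5 lay inside this range, and Cldn4 and Cldn23 lay above it.

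Cldn3 and Cldn4 are paralogs that lie 39.3 kb apart on chromosome 5. Cldn4 stood at 0.0715 times the level of Cldn3 in wild-type and at 0.111 times in knockout cells. The 250 bases before their RefSeq starts (GRCm38.p6, the assembly of mm10) are shown because these neighbours had unlike ratios, with those of Cldn5, which was called higher. No promoter window was available for Cldn23, and that of Cldn10 was not examined. Cldn4 lies on the minus strand (chr5:134946935-134947184), Cldn3 on the plus strand (chr5:134985964-134986213) and Cldn5 on the plus strand (chr16:18776597-18776846). Capitals mark TGANTCA, the binding motif of AP-1 factors, searched on both strands.
Cldn4: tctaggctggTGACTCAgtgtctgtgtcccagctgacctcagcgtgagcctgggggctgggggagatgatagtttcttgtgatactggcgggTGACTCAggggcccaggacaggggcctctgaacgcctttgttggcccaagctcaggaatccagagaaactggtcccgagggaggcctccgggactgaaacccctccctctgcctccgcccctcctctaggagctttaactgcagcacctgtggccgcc
Cldn3: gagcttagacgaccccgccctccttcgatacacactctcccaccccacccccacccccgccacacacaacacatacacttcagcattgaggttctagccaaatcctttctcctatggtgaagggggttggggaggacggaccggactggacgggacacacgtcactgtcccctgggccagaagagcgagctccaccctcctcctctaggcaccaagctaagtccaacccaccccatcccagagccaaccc
Cldn5: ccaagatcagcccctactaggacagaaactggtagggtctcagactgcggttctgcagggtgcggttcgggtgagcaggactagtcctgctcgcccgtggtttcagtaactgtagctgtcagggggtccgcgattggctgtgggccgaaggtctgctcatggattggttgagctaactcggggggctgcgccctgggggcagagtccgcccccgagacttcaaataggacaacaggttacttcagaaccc

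The Cldn4 window held 2 matches to the AP-1 motif, beginning 240 and 158 bases before the start, and the Cldn3 and Cldn5 windows held 0. Of all 32851 RefSeq promoter windows of this length, 6.75% held at least 1 match and 0.338% at least 2. This motif was added after the Cldn4 sequence had been read, so its rarity among windows is no support for a link to the Cldn4 values. The E-box CANNTG had 2 matches in the Cldn4 window and 0 in the others. Of all windows 66.2% held at least 1 match to it and 31.8% at least 2. The GC box GGGCGG occurred once in each of the 3 windows and in 32.7% of all windows. The TATA box TATAAA (12.4% of windows) and the Grainyhead motif AACCGGTT (0.116%) were in none of the 3. No match to these other motifs shared a base with a marked one, and a match is a description of the letters, not of binding.

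Cldn5 and Cldn10 were called higher at low levels. Cldn5 (chromosome 16, 18776847 to 18778262), the main claudin of endothelial tight junctions, was at 0.72 FPKM in wild-type and 2.81 FPKM in knockout cells, about 17.4 and 67.8 reads. The ratio of these FPKM values was 3.90, with a 95% counting interval of 2.33 to 7.27, and the log2 ratio was 1.15. Cldn10 (chromosome 14, 118787871 to 118874525), whose isoforms form cation or anion channels in the kidney, was listed at 0 in the wild-type library. It was at 1.34 FPKM in the knockout library, or 23.5 to 48.6 reads for its shortest and longest coding transcript, with a log2 ratio of 1.23. With a pseudocount of 5 FPKM these log2 ratios became 0.45 and 0.34, and neither gene was called.

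Endothelial, mesothelial and fibroblast markers were also higher in the knockout library. Of 6 endothelial markers 2 were called higher, Plvap (6.01 and 16.2 FPKM) and Emcn (0.5 and 2.11 FPKM). The summed level of the 6 was 11 FPKM in wild-type and 28.8 FPKM in knockout cells, a ratio of 2.62. Pecam1, an adhesion molecule of endothelial cells, was at 2.75 FPKM in wild-type and 6.04 FPKM in knockout cells. Cdh5, the cadherin of endothelial adherens junctions, was at 0.97 FPKM in wild-type and 2.36 FPKM in knockout cells. Neither Pecam1 nor Cdh5 was called. All 6 mesothelial markers were called higher, with a summed level of 3.91 FPKM in wild-type and 73.6 FPKM in knockout cells. Of 6 fibroblast markers 5 were called higher (19.9 and 184 FPKM summed). None of these 18 markers was listed at 0 in either library. Their part in the values of Cldn5 and Cldn10 was not tested.

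**Figure D3:**
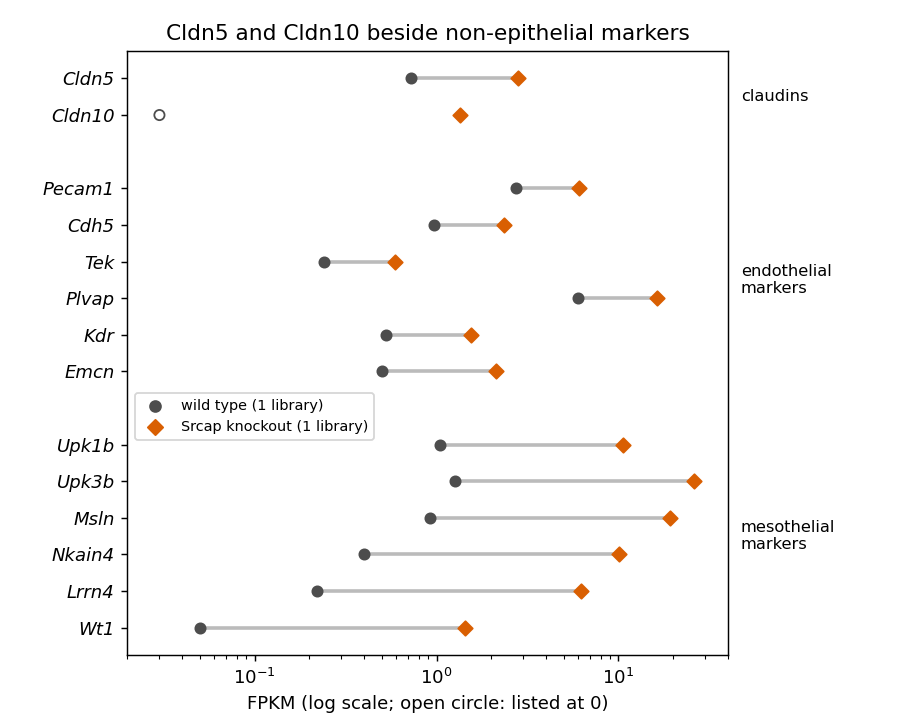
FPKM on a log axis for Cldn5 and Cldn10 and for 6 endothelial and 6 mesothelial markers in the wild-type (circles) and Srcap-knockout (diamonds) library. Every knockout value lies to the right of its wild-type value, and Cldn10 is listed at 0 in the wild-type library.

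The other 9 claudins were below 1 FPKM in both libraries. Cldn8, a claudin of the distal colon and kidney, was the highest of them, at 0.42 FPKM in wild-type and 0.63 FPKM in knockout cells, about 16.9 and 25.3 reads. Cldn11, known from myelin, was at 0.15 FPKM in wild-type and 0.37 FPKM in knockout cells. Cldn14, known from the inner ear, was at 0.26 FPKM in wild-type and 0.18 FPKM in knockout cells. The counting intervals for the folds of Cldn8 (0.764 to 2.91) and Cldn11 (0.788 to 8.71) included equality. Cldn20, Cldn9, Cldn1, Cldn6, Cldn24 and Cldn19 were each at 0.27 FPKM or less. The Cldn20 values, 0.09 and 0.27 FPKM, correspond to about 1.01 and 3.04 reads, and those of Cldn9, 0.16 and 0.04 FPKM, to about 3.94 and 0.983 reads. For Cldn8 and Cldn11 no difference between the libraries was detectable at this depth, and for the other 7 no interval was computed.

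Genes of the scaffold and membrane proteins that accompany claudins in tight junctions were within 2-fold, all 7 of them, with a median log2 ratio of 0.12. F11r, which encodes the adhesion molecule JAM-A, was furthest from equality, at 49.2 FPKM in wild-type and 64.7 FPKM in knockout cells, with a log2 ratio of 0.39. Tjp1, which encodes the scaffold ZO-1, was at 6.76 FPKM in wild-type and 8.76 FPKM in knockout cells (0.33), and Tjp3, which encodes ZO-3, at 128 and 131 FPKM (0.03). Tjp3 was thus far more abundant per length than Tjp1 in both libraries. Cgn, which encodes the cytoplasmic linker cingulin, was at 21.9 FPKM in wild-type and 25.3 FPKM in knockout cells.

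The genes of the MARVEL-domain proteins of tight junctions were also near equality. Ocln, which encodes occludin, was at 33.7 FPKM in wild-type and 31.1 FPKM in knockout cells. Marveld2, which encodes tricellulin of the corners where cells meet, was at 15.1 FPKM in wild-type and 13.8 FPKM in knockout cells. Marveld3 was at 25.6 FPKM in wild-type and 28.0 FPKM in knockout cells. Their log2 ratios, -0.11, -0.13 and 0.12, were small and of mixed sign.

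The 4 listed adherens junction genes were abundant and nearly equal. Cdh1 (chromosome 8, 106603350 to 106670247), which encodes E-cadherin, was at 190 FPKM in wild-type and 186 FPKM in knockout cells, with a log2 ratio of -0.03. Cdh17, a cadherin of the intestinal epithelium without a catenin-binding tail, was at 202 FPKM in wild-type and 229 FPKM in knockout cells, with a log2 ratio of 0.18. Cdh17 stood at 1.06 times the level of Cdh1 in wild-type and at 1.23 times in knockout cells. Ctnna1, which encodes the actin linker alpha-catenin, was at 83.4 and 92.1 FPKM, and Ctnnd1, which encodes p120-catenin, at 81.1 and 84.9 FPKM.

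All 6 desmosome genes had slightly higher values in the knockout library, with log2 ratios from 0.02 to 0.27. Dsg2, the desmosomal cadherin desmoglein 2, was furthest from equality, at 28.9 FPKM in wild-type and 35.1 FPKM in knockout cells. Its partner cadherin Dsc2 was at 24.0 FPKM in wild-type and 27.1 FPKM in knockout cells. Among the plaque genes, Dsp, which encodes the keratin linker desmoplakin, was at 26.0 and 26.5 FPKM. Jup, which encodes plakoglobin of both desmosomes and adherens junctions, was at 71.5 and 74.1 FPKM. The plakophilin genes Pkp2 and Pkp3 were at 29.8 and 32.8 FPKM and at 40.2 and 44.8 FPKM.

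Epcam and the gap junction genes were near equality too. Epcam (chromosome 17, 87635979 to 87651127), which encodes an epithelial adhesion molecule, was at 706 FPKM in wild-type and 711 FPKM in knockout cells, with a log2 ratio of 0.01. Gjb1, which encodes connexin 32, was at 76.6 and 78.6 FPKM, and Gjb2, which encodes connexin 26, at 19.9 and 18.4 FPKM. Of 6 epithelial markers, Epcam included, 5 had higher values in the knockout library, with a median log2 ratio of 0.23. Krt8 had the highest ratio, at 2097 FPKM in wild-type and 2975 FPKM in knockout cells. Cdx2, an intestinal transcription factor, was the only lower one, at 146 and 113 FPKM.

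Claudins and the 10 listed genes of adherens junctions and desmosomes had similar medians but unlike ranges. The median log2 ratio was 0.18 for the 8 claudins averaging 1 FPKM or more and 0.14 for the 10 adherens junction and desmosome genes, a difference of 0.04. The claudins ranged from -0.21 to 1.15, a span of 1.36, and the adherens junction and desmosome genes from -0.03 to 0.27, a span of 0.30. Without Cldn5 the span of the claudins was 1.01, from Cldn12 to Cldn4. The narrow range did not hold for every other gene of these structures. The 15 other adherens junction and cadherin genes averaging 1 FPKM or more ranged from -0.29 to 1.38, a span of 1.67. The top of this range was Cdh3 (0.12 and 1.92 FPKM), and without it the top was the endothelial cadherin gene Cdh5 (0.77). Those reaching 10 FPKM in both libraries lay between Pkp4 (-0.15) and Pvrl2 (0.23), except the brush border genes Cdhr5 (0.65) and Cdhr2 (0.48). The 4 other desmosome genes averaging 1 FPKM or more had a span of 0.48. All 10 adherens junction and desmosome genes lay between the 5th and 95th percentiles of the 5766 more abundant genes. With 1 library per genotype the difference between these groups was not tested. The signs were 7 of 8 positive for claudins and 9 of 10 for the others, and rescaling the libraries to equal sums made the last, Cdh1, positive too.

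**Figure D4:**
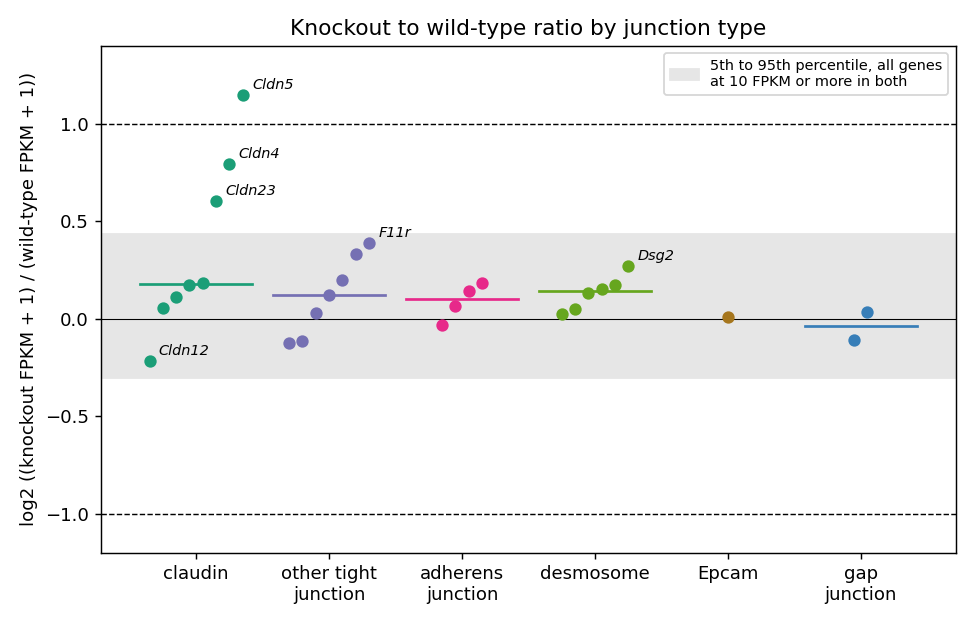
Log2 ratio of knockout over wild type (FPKM + 1) for the 28 genes averaging 1 FPKM or more, by junction type, with the median of each type as a line. The grey band spans -0.30 to 0.43, the 5th to 95th percentile of 5766 genes that reached 10 FPKM in both libraries, and dashed lines mark 2-fold. Cldn4, Cldn23 and Cldn5 lie above the band, and all adherens junction and desmosome genes lie in it.

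Further genes of the same structures were counted by the same rule, under which 2.61% of all genes were called higher. Of 29 other tight junction and polarity genes, 22 reached 1 FPKM, 0 were called and the median log2 ratio was 0.18. The polarity gene Pard6b was furthest from equality among those at 5 FPKM or more, at 13.4 FPKM in wild-type and 23.5 FPKM in knockout cells (0.76). Esam, an adhesion molecule of endothelial junctions, was at 4.35 and 6.64 FPKM (0.51), and Cxadr, a JAM-related receptor, at 12.4 and 17.1 FPKM (0.43).

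Of 22 other adherens junction and cadherin genes, 15 reached 1 FPKM, with 1 called higher and a median of 0.17. The brush border protocadherin genes Cdhr5 and Cdhr2 were at 85.6 and 135 FPKM (0.65) and at 48.6 and 68.2 FPKM (0.48). Pvr, a nectin-like receptor, was at 4.82 and 5.82 FPKM (0.23). The called gene was Cdh3, which encodes P-cadherin, at 0.12 FPKM in wild-type and 1.92 FPKM in knockout cells. It lay outside the rule for naming and was chosen after its values were seen.

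Of 11 other desmosome genes 4 reached 1 FPKM and 0 were called, with Perp at 80.6 and 95.9 FPKM (0.25), Pkp1 at 22.4 and 20.99 FPKM (-0.09) and Evpl at 5.65 and 5.87 FPKM (0.05). Of 16 other connexin genes 5 reached 1 FPKM and 1 was called. It was Gjb5, higher in the knockout library, at 0.16 FPKM in wild-type and 1.69 FPKM in knockout cells, also chosen after its values were seen. The squamous keratin gene Krt14 was at 0.08 FPKM in wild-type and 5.89 FPKM in knockout cells. Sprr2a2, which encodes a small proline-rich protein, was listed at 0 in wild-type and at 16.2 FPKM in knockout cells. Trp63, which encodes the squamous regulator p63, was listed at 0 in both. Thus 2 of the 3 genes taken as squamous markers were called higher. Whether squamous cells were present was not tested. Mesothelial and fibroblast markers were higher in the knockout library as well. Any part of squamous, mesothelial or fibroblast cells in the Cdh3 and Gjb5 values was not tested either. Of 5 keratins that desmosomes may anchor, only Krt20, a keratin of differentiated enterocytes, was called higher, at 60.8 and 146 FPKM (1.25), with Krt8 at 0.50 and Krt19 at 0.47.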

How the data were processed

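RNA sequencing libraries of 50 bp single-end reads, 1 per genotype, were made on a BGISEQ-500, per the labels. The authors deposited FPKM values, 1 table per library, per the file headers. Per the submitters' processing notes, HISAT, Bowtie2, RSEM (no versions or roles) and mm10 were used. Annotation, filters and strand handling are not given in the sources.

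Both tables were joined on Entrez identifier. All 38 identifiers matched RefSeq (GRCm38.p6), which gave symbols and coordinates, and 0 members averaging 1 FPKM or more shared both values with another gene. A pseudocount of 1 FPKM was added before log2 ratios were taken. Medians use members averaging 1 FPKM or more.

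Read depth was inferred from the spacing of low FPKM values in 99 and 101 genes with a single GENCODE M21 transcript under 900 nucleotides. One read was worth 0.0586 and 0.0587 FPKM kb, and 72.7% and 68.3% of values fell within 0.2 of a whole read. Reads and counting intervals (Clopper-Pearson, 95%) are approximate because the authors' transcript lengths are unknown, and intervals were computed for genes with 1 coding transcript.

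All members were named. Of other lists up to 3 genes with the largest absolute log2 ratio at a mean of 5 FPKM or more were named, except for a gene that is not reported here. Marker genes and the keratin, Cdx2 and Krt14 values were given as context. The members and lists were chosen with earlier results of these data known. Other pseudocounts, filters, a 3-fold rule and rescalings were tried. Python 3.11.15, pandas 2.3.3, numpy 2.4.6 and scipy 1.17.1 were used.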

Additional observations from a re-analysis of the deposited data

How the results depend on the processing

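All of these alternatives were planned. The 2 members called higher, both claudins, became 0 with a pseudocount of 5 FPKM, with a minimum of 5 FPKM for the larger value and under a 3-fold rule, since both genes were below 5 FPKM and under 3-fold with the pseudocount. The other alternatives called Cldn5 and Cldn10 again. No alternative called a member lower, nor an adherens junction or desmosome member in either direction. Over all genes, the 308 called higher became 656 and 108 with pseudocounts of 0.1 and 5 FPKM, 472 after rescaling to a sum of 1000000, 194 with the 5 FPKM minimum and 99 under the 3-fold rule. The 49 called lower became 110 and 23 with the pseudocounts and 16 under the 3-fold rule. Over 7 alternatives the claudin median stayed between 0.15 and 0.27, that of adherens junction and desmosome genes between 0.12 and 0.22, and their difference between 0.01 and 0.05. No rescaling moved the median of the 5766 more abundant genes by over 0.1. Epcam turned negative after scaling to the upper quartile, and Cdh1 positive after rescaling to equal sums. Leaving out a library was not possible with 1 per genotype. No paired analysis was possible because each genotype has 1 library. Depth limits the 9 claudins below 1 FPKM, several of which rest on a few reads.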

Other observations

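Genes with claudin-like names that the rule did not take were also measured. Cldnd1, which encodes a claudin domain protein, was at 21.1 FPKM in wild-type and 19.3 FPKM in knockout cells, with a log2 ratio of -0.12. Cldn34c1 was at 0.23 and 0.33 FPKM, Cldn34b1 was listed at 0 in wild-type and at 0.05 FPKM in knockout cells, and Cldnd2 was listed at 0 in both. Markers of further cell types were also measured. Of 6 myeloid markers 4 were called higher, with a summed level of 113 FPKM in wild-type and 271 FPKM in knockout cells. Of 5 enteroendocrine markers 2 were called lower, with 328 and 167 FPKM summed. Tuft cell markers (9.25 and 6.24 FPKM summed), M cell markers (10.4 and 8.67), smooth muscle markers (5.87 and 9.57), T cell markers (18.1 and 31.2), plasma and B cell markers (387 and 596) and glial markers (4.36 and 2.85) gave 0 calls.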
